A study of Arabidopsis thaliana with 54 samples.

Results

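The genes described here are the 44 nuclear genes of Arabidopsis for photosystem subunits and their light-harvesting antennae, out of 33610 gene identifiers counted in every library. They were chosen by name and identifier, by a rule that sets no threshold on measured values, though earlier results of these data were known. They are 13 PSA genes for photosystem I, 11 PSB genes for photosystem II and 6 LHCA genes for the photosystem I antenna (LHCI). The other 14 are LHCB genes for the photosystem II antenna (LHCII and the minor antenna proteins). All 44 matched a locus in the TAIR10.1 reference annotation.

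Photosystem II splits water and passes electrons through plastoquinone and the cytochrome complex to plastocyanin, a small copper protein. Photosystem I takes electrons from plastocyanin and hands them to ferredoxin by way of its own iron-sulfur clusters, so it is one of the largest users of iron in a leaf. The reaction centre proteins are encoded in the plastid, whereas many peripheral subunits and the LHCA and LHCB antenna proteins are encoded in the nucleus. SPL7 is the transcription factor that switches on copper uptake and copper saving when copper runs short.

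Roots and rosettes of the Col-0 accession and of the insertion line spl7 (SALK_109908c) were each profiled by RNA-seq, in 18 groups of 3 libraries. Seedlings grew for 10 days and then for 14 days in aerated hydroponic containers of 16 plants, under a photoperiod of 16 h. Both genotypes had 25 µM iron throughout this time. Col-0 had 0.1 µM copper, and spl7 had 2.5 µM copper as a rescue, except for 1 extra spl7 control group that was kept at 0.1 µM. Plants were then moved for 3 days to 1 of 4 solutions: the control (25 µM iron and 0.5 µM copper), a copper-free solution with 25 µM iron, an iron-free solution with 0.5 µM copper, or a doubly deficient solution with neither metal. The extra spl7 group, called here the low-copper spl7 control, went to the control solution. Because the treated spl7 plants and their control had been rescued with copper, any difference between the responses of spl7 and Col-0 carries the genotype and the copper pretreatment together, and these cannot be told apart. The line is a single insertion allele, and rosette libraries are mixtures of all leaf cell types.

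In units of 1e6 counts, library totals were 11.7 to 20.1 in rosettes and 9.25 to 17.3 in roots. Levels are given as counts per 1e6 (CPM); those of SPL7 are relative to the plain library total, and all others to the effective total after TMM scaling within an organ, the scale of the tests. SPL7 itself measured 22.1 to 32.7 CPM in 12 Col-0 rosette libraries and 8.66 to 18.7 in 15 spl7 ones, and 58.0 to 75.3 against 22.9 to 29.9 in roots, with no overlap in either organ. The 44 genes took 10.6% to 21.1% of all rosette counts and 0.0173% to 0.120% of root counts. A list of 7 root marker genes summed to 2.66 to 31.4 CPM in rosettes and to 1683 to 4009 CPM in roots, so the organs matched their labels. Iron-free spl7 root replicate 3 stood apart: 7.38% of the genes tested lay over 2-fold above or below both of its partners on CPM + 1, against at most 0.552% for any other root library and 0.839% for any rosette library. It enters the shared root fit, so root counts are given with and without it where they differ by over 1.5 times.

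Several antenna genes are near-identical copies, and the sharing of reads among them limits what can be said of each copy. LHCB1.1, LHCB1.2 and LHCB1.3 lie side by side on chromosome 1 and encode the most abundant protein of the LHCII trimer. Their coding sequences were 95.6% to 96.4% identical, with identical runs of up to 119 bases. LHCB1.4 and LHCB1.5, neighbours on chromosome 2, were 91.4% identical, with a shared run of 122 bases. LHCB2.1 and LHCB2.2 were 96.6% identical, with a shared run of 152 bases, whereas LHCB2.3 was 84.4% to 85.5% identical to them. The stretch below is coding bases 145 to 264 of 804 in the TAIR10.1 assembly. It was picked as the window of its length, in codon steps, in which the first 3 copies differ most. Capitals mark the 11 positions, of 47 in the whole coding sequence, at which these copies are not all alike. Other such windows hold no more differing positions. The genes lie at chr1:10474656-10475969 (minus strand), chr1:10472280-10473502 (minus strand) and chr1:10477885-10479114 (plus strand).
LHCB1.1: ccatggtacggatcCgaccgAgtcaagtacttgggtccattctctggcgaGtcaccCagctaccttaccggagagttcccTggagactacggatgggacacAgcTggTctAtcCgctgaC
LHCB1.2: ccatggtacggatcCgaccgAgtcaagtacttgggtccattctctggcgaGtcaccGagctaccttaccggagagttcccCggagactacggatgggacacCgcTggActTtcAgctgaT
LHCB1.3: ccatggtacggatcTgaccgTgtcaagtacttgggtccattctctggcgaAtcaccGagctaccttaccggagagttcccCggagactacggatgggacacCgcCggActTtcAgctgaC
A read that falls within a run shared by copies fits more than 1 of them. Values of single LHCB1 copies, and of LHCB2.1 against LHCB2.2, are therefore uncertain, and the sums over copies are given beside the results that turn on them.

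The pattern that follows turns on a few genes, whose 250 bases before the annotated gene start are shown from the TAIR10.1 assembly, read in the direction of the gene. PSAN, PSAF and LHCB2.3 moved furthest, and LHCB4.3 and PSBS moved least or apart from the rest. Capitals mark matches, on either strand, to 4 motifs: CACGTG (the G-box), GATAAG (the I-box), CCAATC, and GTAC, the core bound by SBP-domain factors such as SPL7.
PSAN (chr5:25629709-25629958, minus strand): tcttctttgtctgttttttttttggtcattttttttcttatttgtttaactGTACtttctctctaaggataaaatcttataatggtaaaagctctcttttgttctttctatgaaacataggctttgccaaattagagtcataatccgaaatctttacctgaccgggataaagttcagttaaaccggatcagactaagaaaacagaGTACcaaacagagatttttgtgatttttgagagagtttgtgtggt
PSAF (chr1:11216142-11216391, minus strand): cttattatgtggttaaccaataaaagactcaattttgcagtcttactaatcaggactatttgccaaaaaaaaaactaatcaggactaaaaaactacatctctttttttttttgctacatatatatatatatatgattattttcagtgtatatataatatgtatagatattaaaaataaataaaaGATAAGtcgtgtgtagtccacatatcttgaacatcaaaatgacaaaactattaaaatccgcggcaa
LHCB2.3 (chr3:10255656-10255905, plus strand): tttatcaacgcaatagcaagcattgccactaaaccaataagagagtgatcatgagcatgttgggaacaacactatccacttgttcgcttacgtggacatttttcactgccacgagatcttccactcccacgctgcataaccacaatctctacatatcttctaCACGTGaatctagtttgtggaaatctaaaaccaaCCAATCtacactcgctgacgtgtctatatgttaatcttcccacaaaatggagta
LHCB4.3 (chr2:16745378-16745627, plus strand): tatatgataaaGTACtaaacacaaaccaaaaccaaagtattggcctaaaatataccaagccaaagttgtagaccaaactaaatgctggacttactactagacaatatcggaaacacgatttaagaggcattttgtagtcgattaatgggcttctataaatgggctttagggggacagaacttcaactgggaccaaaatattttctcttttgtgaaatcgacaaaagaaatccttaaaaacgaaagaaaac
PSBS (chr1:16869971-16870220, plus strand): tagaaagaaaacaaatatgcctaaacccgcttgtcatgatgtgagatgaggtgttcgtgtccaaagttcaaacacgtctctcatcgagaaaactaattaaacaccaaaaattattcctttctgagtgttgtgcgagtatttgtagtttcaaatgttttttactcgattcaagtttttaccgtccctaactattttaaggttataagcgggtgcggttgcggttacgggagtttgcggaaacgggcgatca
Over the 44 promoters, the G-box was found in 9 (20.5%), against 6.49% of 27443 protein-coding genes, and the I-box also in 9, against 12.3%. CCAATC was found in 11 (25.0%), against 10.2%. It was in 3 of 6 LHCA, 7 of 14 LHCB and 1 of 11 PSB promoters and in 0 of 13 PSA promoters. GTAC was found in 16 (36.4%), against 34.3% of all genes. The promoters of PSAN and PSAF, both among the strongest falls described next, share no motif of the 4, and the PSBS window holds none of them. These matches describe letters in a window and say nothing about binding.

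In Col-0 control rosettes, levels per kilobase of exon (RPKM, mean ± SD, n = 3) covered a wide range. LHCB1.3 was highest at 19523 ± 2818 RPKM, followed by LHCB1.5 at 11883 ± 1146 RPKM, with the caveat of shared reads. Among LHCA genes LHCA4 was highest at 6871 ± 715 RPKM and LHCA6 lowest at 121 ± 11.1 RPKM. LHCA5, at 139 ± 13.5 RPKM, was close to LHCA6. Both of these encode minor antenna proteins that link photosystem I to the NDH complex of cyclic electron flow, whereas LHCA1 to LHCA4 form the main antenna belt. Within photosystem I, PSAG, a membrane subunit that contacts the antenna belt, was highest at 4917 ± 536 RPKM and PSAH1 lowest at 465 ± 44.6 RPKM. Within photosystem II, PSBO1, the main manganese-stabilizing protein of the oxygen-evolving complex, was highest at 4031 ± 415 RPKM. PSBS, the sensor that switches on the harmless loss of excess light as heat, was lowest at 710.0 ± 39.1 RPKM. LHCB4.3, a variant of the minor antenna protein CP29, was the lowest of all 44 at 46.5 ± 1.81 RPKM.

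In rosettes, the largest event among these genes was a joint fall in iron-free spl7 plants, and it was not seen when copper was removed together with iron. The summed level of the photosystem I genes was 28533, 30151 and 32909 CPM in spl7 controls and 12957, 16308 and 16527 CPM in iron-free spl7. In doubly deficient spl7 it was 28781, 30793 and 28953 CPM, within the range of the controls. Every iron-free spl7 library lay below every library of the other 8 rosette groups for this sum. Fewer cells of a type and less RNA per cell cannot be told apart in such bulk samples. For Col-0 the photosystem I sum was 31290, 33197 and 27742 CPM in controls, 19645, 22290 and 26363 CPM without iron, and 34294, 37565 and 33377 CPM without both metals. The iron-free Col-0 libraries were thus below their controls and the doubly deficient ones above them, without overlap in either case.

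**Figure D1:**
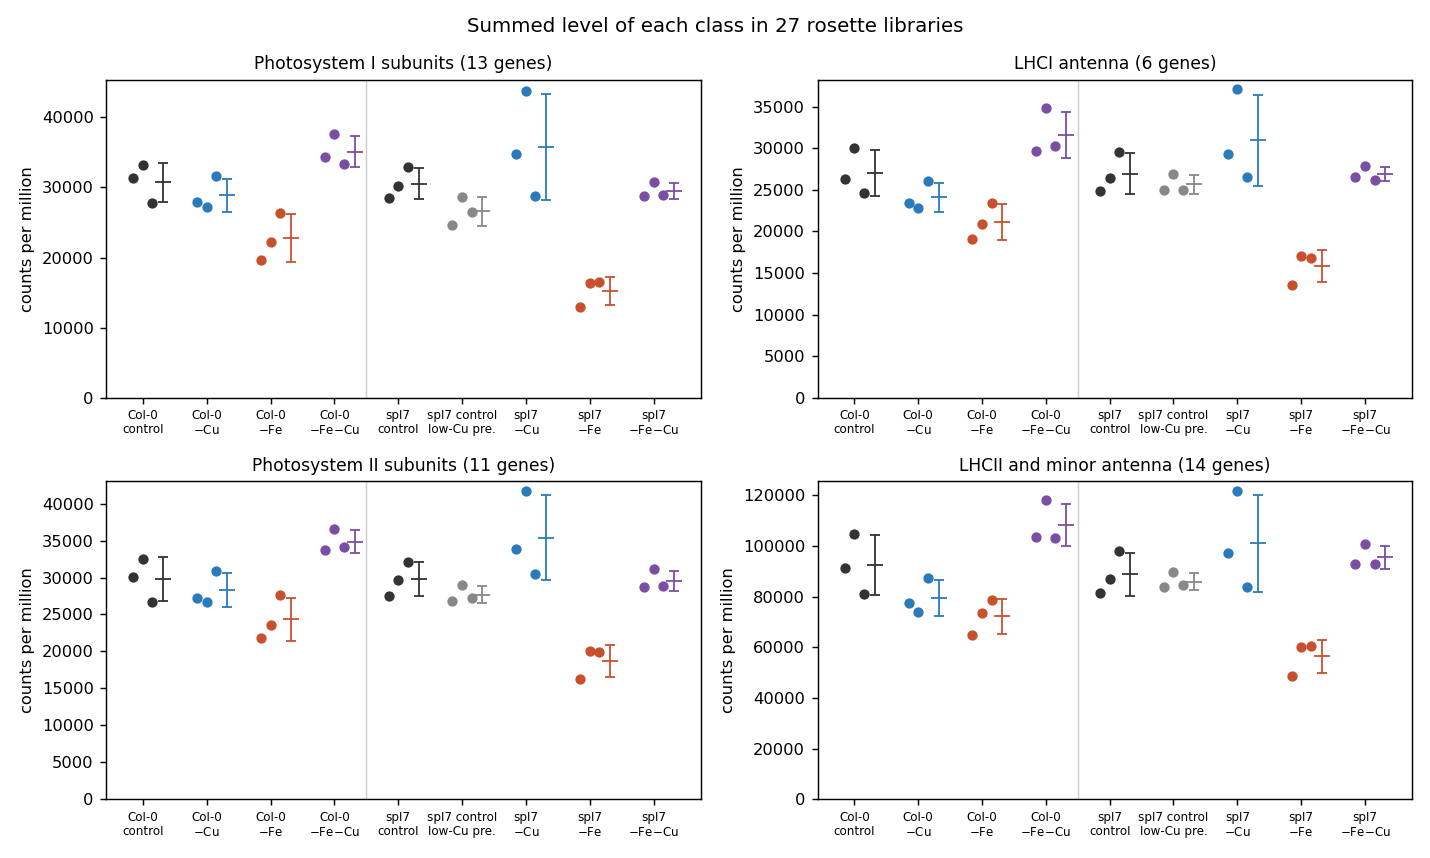
Summed CPM of each class of genes in 27 rosette libraries; each point is 1 library, and the bar with whiskers is the mean ± SD of 3 libraries per group. In all 4 panels the iron-free spl7 libraries are lowest, for photosystem I at 12957 to 16527 CPM, and 1 copper-free spl7 library is highest.

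Removing iron from spl7 lowered 41 of the 44 genes and raised 0 (edgeR's quasi-likelihood test, Benjamini-Hochberg adjusted p below 0.05), when 27.4% of all 20015 genes tested were called and 14.8% were called lower. All 13 photosystem I genes fell, as did all 6 LHCA genes, 12 of 14 LHCB genes and 10 of 11 photosystem II genes. The median log2 change was -0.77 for photosystem I, -0.77 for LHCA, -0.79 for LHCB and -0.72 for photosystem II genes, against 0.01 over all genes. For 43 of the 44 genes every iron-free library was below every control library, as for 22% of all genes. The 3 genes not called were LHCB1.2 at -0.32, PSBS at -0.18 and LHCB4.3 at -0.01.

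PSAN (AT5G64040), a lumenal subunit that helps plastocyanin dock at photosystem I, fell furthest. It measured 2098.5, 2398 and 2528 CPM in spl7 controls and 288, 500.5 and 513 CPM without iron. The groups were far apart, and the change was -2.43 ± 0.20 on the log2 scale, a 5.40-fold fall (edgeR adjusted p = 1.86e-08). PSAF (AT1G31330), the subunit that binds plastocyanin, went from 5126, 5304 and 6067 CPM to 1122, 1693 and 1720.1 CPM. Its 3.64-fold fall (-1.86 ± 0.17, edgeR adjusted p = 1.06e-07) again left no overlap. PSAD2 (AT1G03130), 1 of a pair of genes for the stromal subunit to which ferredoxin docks, went from 1566, 1610.2 and 1901 CPM to 543, 719 and 723 CPM. That fall was 2.56-fold (-1.36 ± 0.16, edgeR adjusted p = 1.69e-06). PSAP fell by 1.00 ± 0.15 on the log2 scale, and the other 9 photosystem I genes by 0.47 to 0.85. PSAP is also named CURT1B, a protein that bends thylakoid membranes.

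Among the antenna genes of photosystem II, LHCB2.3 fell most. LHCB2 proteins, together with LHCB1, form the mobile trimers that move between the photosystems. LHCB2.3 (AT3G27690) measured 1337, 1525 and 1597 CPM in spl7 controls and 366, 503 and 466 CPM without iron, a 3.34-fold fall (-1.74 ± 0.17, edgeR adjusted p = 1.75e-07). No library of one group came near the other. LHCB1.4 fell by 1.14 ± 0.22 on the log2 scale, and LHCB5 (CP26) and LHCB2.2 by 0.85 each. With copies summed, LHCB1 fell by 0.54 (edgeR adjusted p = 0.00859) and LHCB2 by 0.89 (edgeR adjusted p = 9.92e-06). Both family sums thus fell, for reads that were counted to some copy. Any reads left uncounted because they fit several copies are not in the sums. LHCB1.5 lost its call without control replicate 3 or without iron-free replicate 1.

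All 6 LHCA genes fell by similar amounts. LHCA3 (AT1G61520) had the largest change, from 5745, 6154 and 7065 CPM to 2910.1, 3727 and 3715 CPM (-0.87 ± 0.13, edgeR adjusted p = 3.18e-05), with no overlap. LHCA2, LHCA6 and LHCA1 fell by 0.86, 0.81 and 0.73 on the log2 scale, and LHCA5 changed least of the 6 at -0.57.

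In photosystem II, the low-molecular-mass subunit PSBW (AT2G30570) fell most, from 2296, 2520.1 and 2879 CPM to 1052, 1395 and 1417 CPM (-0.99 ± 0.13, edgeR adjusted p = 1.11e-05). PSBQ2, a lumenal protein of the oxygen-evolving complex, fell by 0.95, the small lumenal protein PSBTN by 0.88 and PSBX by 0.77. PSBO1 and PSBO2 fell by 0.57 and 0.43. PSBS (AT1G44575) stood apart, with 1381, 1372 and 1459 CPM in controls and 1129.7, 1318 and 1262 CPM without iron (-0.18 ± 0.09, edgeR adjusted p = 0.114). LHCB4.3 (AT2G40100) measured 89.7, 87.2 and 84.3 CPM in controls and 83.0, 97.5 and 78.8 CPM without iron, and these libraries overlapped.

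**Figure D2:**
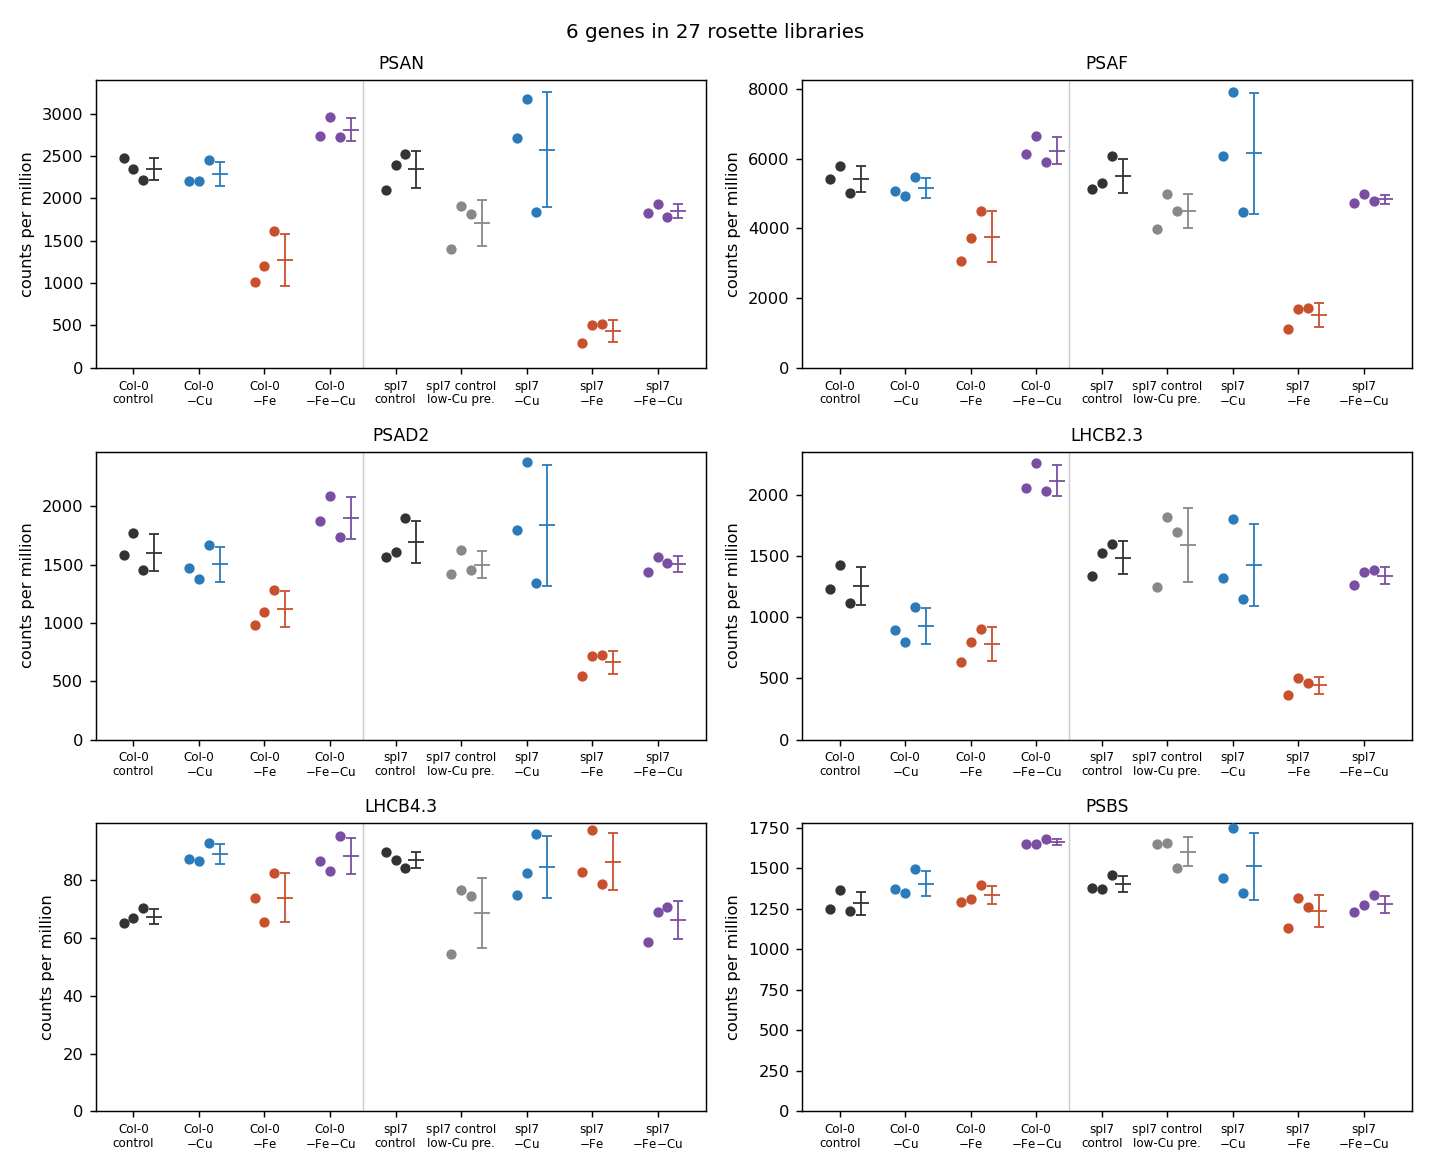
CPM of 6 genes in the 27 rosette libraries; points are libraries and bars with whiskers are mean ± SD of 3. PSAN, PSAF, PSAD2 and LHCB2.3 are lowest in iron-free spl7, whereas LHCB4.3 and PSBS in that group overlap or nearly reach their controls.

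The ratio of summed photosystem I to summed photosystem II CPM was 0.798, 0.811 and 0.832 in iron-free spl7 and 1.04, 1.02 and 1.02 in spl7 controls. It was 0.899, 0.945 and 0.955 in iron-free Col-0, and 0.917 to 1.05 over the libraries of the other 7 groups. The difference in spl7 was -0.212 and that in Col-0 -0.0997 (exact permutation test, two-sided, n = 3 per group, p = 0.1 for each, the smallest p that 3 against 3 allows). PSAN, PSAF and PSAD2, the photosystem I genes that fell furthest in iron-free spl7, were also left out, a choice made after their values were seen. A smaller difference in spl7 followed from that choice and is no test. Without these genes the differences were smaller and of the same sign. The mean ratio was then 0.676 in iron-free spl7 against 0.705 in its controls (difference -0.0299). In Col-0 it was 0.682 against 0.718 (difference -0.0362). Iron-free spl7 libraries, at 0.666 to 0.683, lay inside the range of 0.663 to 0.728 over the other 24 libraries. The ratio of LHCB to photosystem II sums was 2.98 to 3.04 in iron-free spl7, inside the range of 2.74 to 3.24 elsewhere. The ratio of LHCA to photosystem I sums was 1.01 to 1.05, against 0.826 to 1.02 elsewhere.

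Members of duplicated pairs did not all keep their proportions. PSAD2 made up 27.5% to 29.6% of the PSAD counts in iron-free spl7 and 33.9% to 38.6% in the other 24 libraries, with no overlap. PSAE2, 1 of a pair for another stromal subunit at the ferredoxin site, made up 22.9% to 24.2% against 18.9% to 21.8%. The shares of PSAH2, PSBQ2 and LHCB4.2 in their pairs lay inside the range of the other libraries, and that of PSBO2 overlapped it. The PSAD and PSAE pairs were 86.3% and 77.3% identical over their coding sequences, with identical runs of at most 35 bases.

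In Col-0, iron removal alone called 6 of the 44 genes, all lower, when 2.41% of all genes tested were called and 0.889% were called lower. The median over the 44 was -0.36 against -0.01 over all genes, and 36 of the 44 had an unadjusted p below 0.05, against 14.9% of all genes. For 24 genes every iron-free library was below every control library, as for 9.73% of all genes. PSAN had the largest change, from 2475, 2344 and 2214 CPM to 1010, 1198 and 1614 CPM (-0.88 ± 0.19, edgeR adjusted p = 0.0128). LHCB2.3 went from 1227, 1424 and 1119.8 CPM to 634, 801 and 908 CPM (-0.69 ± 0.17, edgeR adjusted p = 0.0260). Neither gene's groups overlapped. PSBTN, PSBQ2, PSBX and PSAE2 fell by 0.49, 0.49, 0.39 and 0.38. PSAF, at -0.52, and PSAD2, at -0.52, were not called.

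These Col-0 calls were fragile. The count was 0 without control replicate 1, without iron-free replicate 1 or without iron-free replicate 2, and 1 without control replicate 2. It was also 0 when only the compared groups were fitted, and 20 with the DESeq2 Wald test. All 6 genes were also called lower in iron-free spl7.

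**Figure D3:**
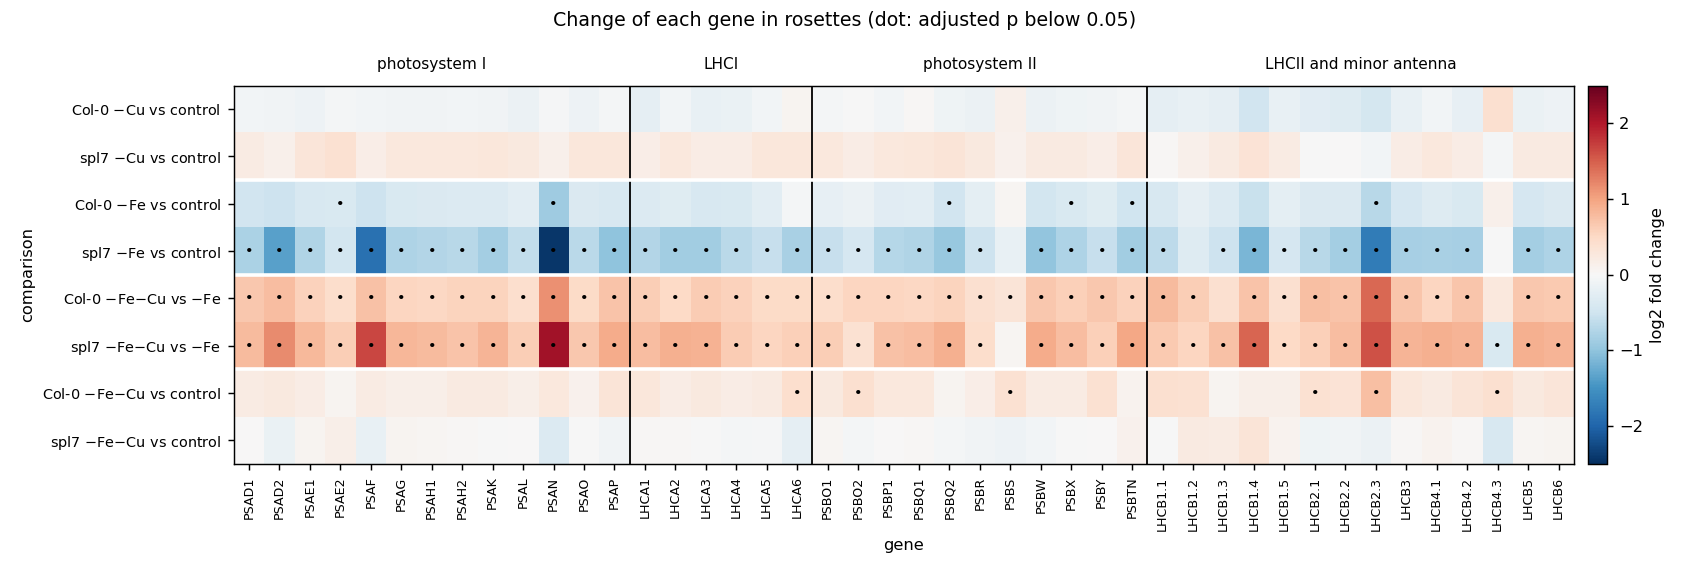
Log2 change of each of the 44 genes in 8 rosette comparisons, in colour from blue (lower) to red (higher), with a dot where the adjusted p is below 0.05; columns are genes by class. The iron-free spl7 line has 41 dots, all lower, and the lines for doubly deficient against iron-free plants have 42 dots in Col-0 and 43 in spl7.

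Whether the response to iron removal differed between the genotypes was tested directly, as the spl7 change minus the Col-0 change. Over all genes, 8.46% were called and 5.06% were called lower. The difference was called for 5 of the 44 genes, a share near the 8.46%, and all 5 were further down in spl7. These were PSAN (-1.55 ± 0.27, edgeR adjusted p = 0.00141), PSAF (-1.34 ± 0.24, 0.00170), LHCB2.3 (-1.05 ± 0.23, 0.00861), PSAD2 (-0.84 ± 0.22, 0.0198) and LHCA6 (-0.77 ± 0.19, 0.0145). PSAN, PSAF, LHCB2.3 and LHCA6 kept the call whichever 1 of the 12 libraries was left out. PSAD2 lost it without control replicate 3 or iron-free replicate 3 of Col-0, and without control replicate 3 or iron-free replicate 1 of spl7. Without iron-free Col-0 replicate 1 the count was 10. With the replicate number as a block it was 8, and with the Wald test 12. The estimate was below 0 for all 44 genes, with a median of -0.39, but the same control and treated libraries enter all of them.

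Across the 44 genes, the change in spl7 followed that in Col-0 and was larger for 43 of them (Pearson's r = 0.838, Spearman's rho = 0.772, as a description across genes, which share their libraries and are not independent replicates).

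**Figure D4:**
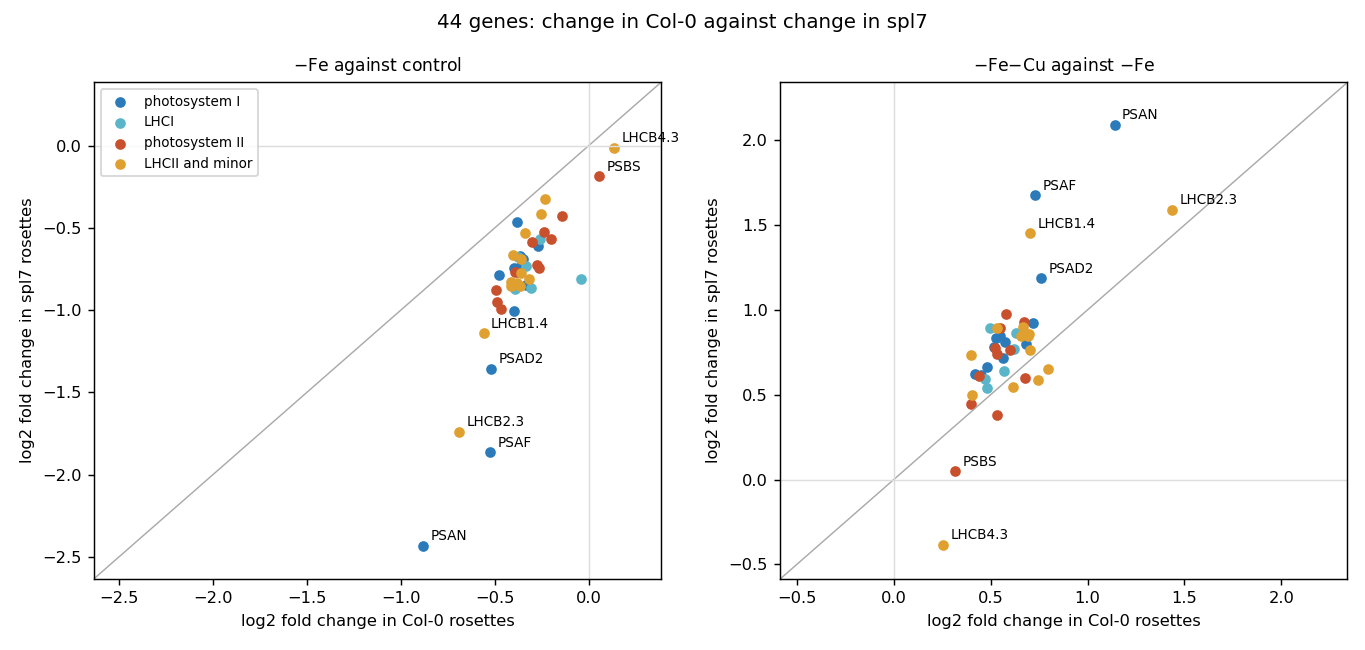
Log2 change in spl7 rosettes against that in Col-0 rosettes for the 44 genes, coloured by class, for iron-free against control (left) and doubly deficient against iron-free plants (right); the grey diagonal marks equal change. PSAN, PSAF, PSAD2, LHCB2.3 and LHCB1.4 lie furthest from the bulk, and LHCB4.3 and PSBS lie at the opposite end.

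Removing copper as well as iron was compared with removing iron alone, which asks whether the second deficiency alters the first. In Col-0 42 of the 44 genes were higher in doubly deficient than in iron-free rosettes and 0 were lower, when 12.8% of all genes were called and 7.15% were called higher. The 2 genes not called were LHCB1.3 at 0.40 and LHCB4.3 at 0.26, and for all 44 every doubly deficient library was above every iron-free one, as for 17.4% of all genes. The median was 0.57, against -0.01 over all genes. LHCB2.3 rose most, from 634, 801 and 908 CPM to 2056, 2260 and 2031 CPM (1.44 ± 0.17, edgeR adjusted p = 5.12e-06). PSAN went from 1010, 1198 and 1614 CPM to 2734, 2964 and 2728 CPM (1.14 ± 0.19, edgeR adjusted p = 0.000418). Among photosystem II genes PSBY and PSBW rose most, by 0.68 and 0.67, and among LHCA genes LHCA3, by 0.63. With copies summed, LHCB1 rose by 0.51 (edgeR adjusted p = 0.0229) and LHCB2 by 0.85 (edgeR adjusted p = 4.27e-05). The count was 30 without iron-free replicate 1 and at least that without any other library.

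In spl7 the same comparison called 42 genes higher and 1 lower, when 18.1% of all genes were called, 10.3% higher and 7.76% lower. PSAN rose from 288, 500.5 and 513 CPM to 1830.1, 1937 and 1775 CPM (2.09 ± 0.20, edgeR adjusted p = 3.46e-07). PSAF rose from 1122, 1693 and 1720.1 CPM to 4726, 4975 and 4791 CPM (1.68 ± 0.17, edgeR adjusted p = 1.19e-06). The iron-free libraries were spread among themselves, and in both genes they lay far below the doubly deficient ones. With copies summed, LHCB1 rose by 0.70 (edgeR adjusted p = 0.00173). LHCB2.3, LHCB1.4 and PSAD2 rose by 1.59, 1.45 and 1.19, PSBTN and PSBW by 0.98 and 0.93, and LHCA2 by 0.89. The gene called lower was LHCB4.3, with 58.7, 69.1 and 70.8 CPM against 83.0, 97.5 and 78.8 CPM (-0.38 ± 0.11, edgeR adjusted p = 0.0206). That call was lost without iron-free replicate 2 or without doubly deficient replicate 1. PSBS was not called, at 0.05 ± 0.09. Of the genes called higher, 41 were called in both genotypes, and PSBS in Col-0 alone.

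Doubly deficient plants were also compared with their controls. In Col-0, 6 of the 44 genes were higher and 0 lower, when 7.77% of all genes were called and 3.96% were called higher. LHCB2.3 differed most, at 2056, 2260 and 2031 CPM against 1227, 1424 and 1119.8 CPM in controls (0.75 ± 0.17, edgeR adjusted p = 0.00619). The others were LHCA6 (0.43), LHCB4.3 (0.39), PSBO2 (0.39), LHCB2.1 (0.38) and PSBS (0.37). PSBS measured 1651, 1651 and 1683 CPM against 1251, 1365 and 1235 CPM, with no overlap. For 28 genes the doubly deficient libraries were all above the controls, as for 13.7% of all genes. With copies summed, LHCB2 was higher by 0.44 (edgeR adjusted p = 0.0220). The count was 2 without control replicate 1 or 3, and 3 without any 1 of the doubly deficient libraries.

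In doubly deficient spl7, 0 of the 44 genes differed from the control by edgeR, when 2.11% of all genes were called; 1 gene had an unadjusted p below 0.05, against 14.6% of all genes, and the DESeq2 Wald test called 1. The median was 0.01. The difference between the genotypes in this response was called for 5 genes, all further down in spl7, when 8.29% of all genes were called and 4.42% were called lower. They were LHCB2.3 (-0.90 ± 0.23, edgeR adjusted p = 0.0177), LHCB4.3 (-0.79 ± 0.16, 0.00298), LHCA6 (-0.64 ± 0.19, 0.0329), PSBS (-0.51 ± 0.12, 0.00996) and LHCB2.1 (-0.49 ± 0.15, 0.0388). With copies summed, the LHCB2 difference was -0.54 (edgeR adjusted p = 0.0415). LHCB4.3 and PSBS kept the call without any 1 of the 12 libraries. LHCB2.3 lost it without Col-0 control replicate 3 or doubly deficient spl7 replicate 1, and with either of these left out the count was 2. It was 3 without Col-0 control replicate 1, Col-0 doubly deficient replicate 2, spl7 control replicate 3 or spl7 doubly deficient replicate 2. LHCA6 and LHCB2.1 lost the call in 7 and 9 of the 12 cases. Fitting only the groups compared gave 10 genes.

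Whether the single deficiencies add up was tested in Col-0 as the departure of the doubly deficient group from their sum on the log2 scale. The departure was above 0 and called for 31 of the 44 genes, when 4.52% of all genes were called and 2.64% were called above 0. The genes were 11 of 13 for photosystem I, 4 of 6 LHCA, 10 of 14 LHCB and 6 of 11 for photosystem II, and the median over the 44 was 0.68. LHCB2.3 departed most. It was 1227, 1424 and 1119.8 CPM in controls, 892, 799 and 1086 CPM without copper, 634, 801 and 908 CPM without iron, and 2056, 2260 and 2031 CPM without both. All libraries of each single deficiency lay below the controls, and those of the double one above them. Copper removal alone was not called for this gene. Its departure was 1.88 ± 0.24 (edgeR adjusted p = 2.41e-05). LHCB1.4, PSAN, LHCB2.1 and LHCB2.2 followed at 1.18, 1.18, 1.02 and 1.02. With copies summed, the departure was 0.75 for LHCB1 (edgeR adjusted p = 0.0380) and 1.17 for LHCB2 (edgeR adjusted p = 0.000102). The size of the count depended on single libraries. It was 13 without control replicate 2 or doubly deficient replicate 2, 14 without copper-free replicate 2, iron-free replicate 1 or iron-free replicate 2, 16 without copper-free replicate 1 and 18 without control replicate 1. LHCB2.3 ranged from 1.75 to 2.01 over these and kept its call.

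Copper removal with iron present called none of the 44 genes in rosettes of either genotype by edgeR. In Col-0, 0.02% of all genes were called, and the median over the 44 was -0.10, with 5 genes at an unadjusted p below 0.05, against 8.58% of all genes. In spl7, 1.12% of all genes were called and the median was 0.22, with 16 genes at an unadjusted p below 0.05, against 15.1% of all genes, and the Wald test called 1. The copper-free spl7 libraries were spread in their sum over the 44 genes. Replicate 2 had 244370 CPM, against 195200 and 169530 CPM in replicates 1 and 3. The difference between the genotypes was called for 0 genes by edgeR, with 18 at an unadjusted p below 0.05, when 0.03% of all genes were called and 2025 of the 20015 had such a p. These counts were 0 in the Col-0 comparison and in the difference without any 1 library, and 0 to 2 in spl7.

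After the same low-copper pretreatment and in control solution, spl7 rosettes differed from Col-0 in 9 of the 44 genes, 2 higher and 7 lower, when 42.2% of all genes were called, 20.6% higher and 21.6% lower. The share among the 44 was thus below that among all genes. LHCB1.4 was lower, at 2444, 3939 and 3924 CPM against 6482, 7376 and 5340.2 CPM (-0.90 ± 0.22, edgeR adjusted p = 0.00228). With copies summed, neither family was called: LHCB1 was at -0.14 (edgeR adjusted p = 0.463) and LHCB2 at 0.29 (edgeR adjusted p = 0.0505). PSBQ1, PSBTN and PSAH2 were lower by -0.55, -0.51 and -0.47. PSAH, with PSAL and PSAO, forms the side of photosystem I where LHCII docks. PSBS was higher by 0.32, as was LHCB2.1, whose call was lost in the LHCB2 sum. PSBS measured 1652, 1656 and 1501 CPM against 1251, 1365 and 1235 CPM, with no overlap. Within spl7, low against high copper pretreatment called 0 genes higher and 4 lower, when 23.9% of all genes were called and 12% were called lower: LHCB1.4 (-0.64), PSBQ1 (-0.45), PSAH2 (-0.36) and LHCB4.3 (-0.35). The LHCB1 sum was not called, at -0.02 (edgeR adjusted p = 0.935). That count was 0 without high-copper control replicate 3 or without low-copper replicate 1, and 1 without high-copper control replicate 2.

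Genes that work beside the photosystems moved in the same direction in iron-free spl7 rosettes. Over all genes, 27.4% were called in this comparison and 14.8% were called lower. Of 11 genes for electron transfer and ATP synthase, 10 fell and 0 rose, with a median of -0.53. FD2, the main leaf ferredoxin, fell by 2.65 ± 0.26, and PETM, a small subunit of the cytochrome complex, by 2.07 ± 0.18. FD2 measured 2231, 2296 and 2572 CPM in spl7 controls and 284, 405 and 441 CPM without iron. All 12 photosystem assembly factors fell (median -0.47), as did 10 of 12 genes for antenna insertion and adjustment, led by CPSRP54 (-0.73) and ALB3 (-0.70), which bring antenna proteins into the membrane. Of 17 plastid-encoded photosystem genes tested, 7 fell and 0 rose (median -0.74). Plastid genes had low levels in these libraries, with psbA at 64.1 CPM and psaA at 10.4 CPM in Col-0 control rosettes. Whether such reads follow the plastid RNA levels was not tested. All 8 leaf carbon fixation genes fell too, with a median of -0.45 and CA1, a carbonic anhydrase, at -1.17. The median of the 44 genes was -0.76, and all of these list medians lay nearer to 0, the plastid list at -0.74 being the furthest from 0 among them. The part of a general change in leaf genes in the falls above was not tested.

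Of 16 regulators of photosynthesis genes, 8 fell and 0 rose in iron-free spl7, with a median of -0.26. Over all genes, 14.8% were called lower there. SIG1, a sigma factor of the plastid RNA polymerase that transcribes photosystem genes, measured 160, 156 and 175 CPM in controls and 28.9, 41.2 and 39.1 CPM without iron (-2.17 ± 0.14, edgeR adjusted p = 1.09e-09). GLK1, an activator of nuclear antenna and photosystem genes, fell by 0.54, and GNC by 0.62. When copper was removed as well, SIG1 rose by 1.70 in spl7 and by 0.81 in Col-0. In doubly deficient against iron-free Col-0, 8 of 11 electron transfer genes, 10 of 12 assembly factors, 10 of 12 insertion genes, 7 of 16 regulators and 0 of 17 plastid genes rose. In spl7 these counts were 10, 12, 7, 8 and 13. Over all genes, 7.15% were called higher in Col-0 and 10.3% in spl7.

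Clock genes also moved in these libraries, and the labels give no time of day for the harvests. In iron-free against control spl7 rosettes, 2 of 9 clock genes were higher, LHY by 0.92 among them, and 4 were lower, led by GI at -0.77. In doubly deficient against iron-free Col-0, 4 were higher and 5 lower, with PRR9 at 1.26, ELF4 at -1.87, LUX at -1.45 and TOC1 at -1.28. In low-copper spl7 against Col-0 controls, 4 were higher and 4 lower, with CCA1 at 2.55. In iron-free against control Col-0 only CCA1 was called, at 0.66. Over all genes, 27.4%, 12.8%, 42.2% and 2.41% were called in these comparisons, in the order given. Antenna genes are known to follow the clock, and the part of these shifts in the results above was not tested.

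Roots held traces of the same transcripts. Roots and rosettes were scaled separately, so levels across organs were not tested. In control Col-0 the root level was 0.168% to 1.06% of the rosette level in CPM, with a median of 0.227%. For the 8 leaf carbon fixation genes, which are used here as markers of green tissue, the range was 0.212% to 0.336%, with a median of 0.242%. The highest percentages among the 44 were those of LHCB4.3 at 1.06%, LHCB4.1 at 0.752%, PSAP at 0.687% and LHCA4 at 0.469%. In root libraries, 43 of the 44 genes passed the filter on low counts, all but LHCA6.

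Root levels of the 44 genes went up and down with those of the 8 green tissue markers from library to library. In low-copper spl7 controls the 44 genes summed to 1197, 675 and 396 CPM and the markers to 164, 89.7 and 52.7 CPM. High-copper spl7 controls had 173, 188 and 354 CPM and 15.9, 19.9 and 50.8 CPM. Replicates of 1 group thus differed by as much as groups did. Whether the root differences below come from the root itself or from green tissue in the sample was not tested.

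**Figure D5:**
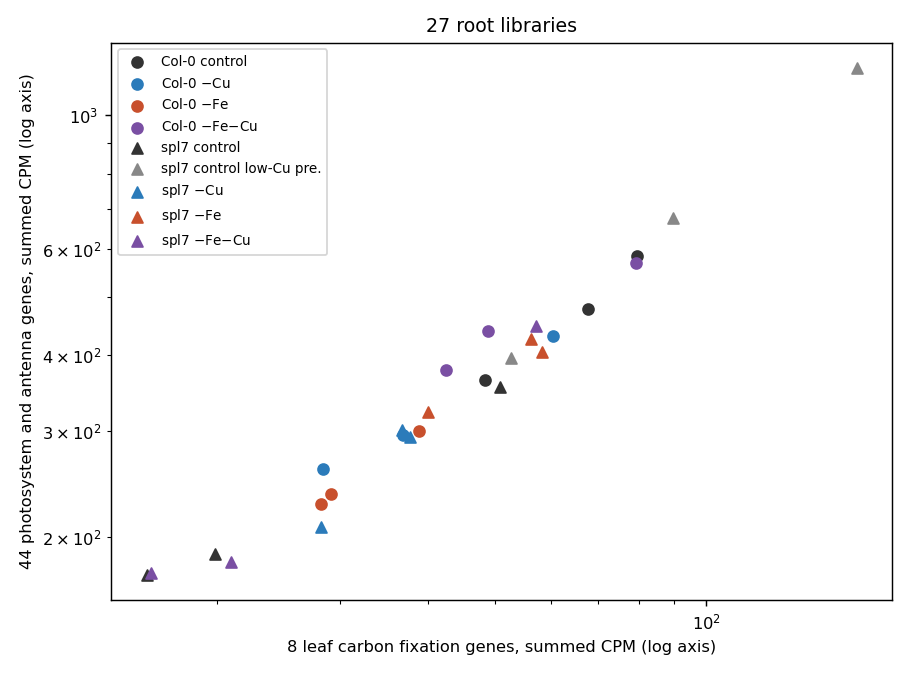
Summed CPM of the 44 genes against summed CPM of 8 leaf carbon fixation genes in 27 root libraries, on log axes; circles are Col-0 and triangles spl7. The points lie along 1 line, from 173 and 15.9 CPM in a spl7 control to 1197 and 164 CPM in a low-copper spl7 control.

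With that limit, low against high copper pretreatment called 33 of 43 genes higher in spl7 roots and 0 lower, when 4.36% of all 20462 genes tested were called and 2.97% were called higher. The median was 1.88, and that of the 8 markers, of which 7 were higher, was 2.09. PSBS had the largest change, with 9.88, 5.26 and 2.79 CPM against 0.214, 0.311 and 1.44 CPM (3.19 ± 0.81, edgeR adjusted p = 0.0237). For 31 genes the low-copper libraries were all higher, as for 14.1% of all genes. The count was 0 without high-copper control replicate 1, 3 without high-copper control replicate 2 and 4 without low-copper replicate 1, so it rested on these libraries.

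Iron removal called 3 genes in Col-0 roots, all lower, when 20.4% of all genes were called and 10.4% were called lower, so the share among the 43 was below the background. PSAN measured 9.35, 11.4 and 10.0 CPM in controls and 6.33, 5.50 and 4.38 CPM without iron (-0.92 ± 0.29, edgeR adjusted p = 0.0298), with no overlap. LHCB1.5 (-1.16) and LHCA4 (-0.67) were the others, and the LHCB1 sum was not called, at -1.21 (edgeR adjusted p = 0.0813). The median was -0.95, that of the 8 markers, of which 1 was lower, was -1.26, and 33 of the 44 genes had all iron-free libraries below the controls, as did 22.3% of all genes. The count was 0 without control replicate 2, iron-free replicate 2 or iron-free replicate 3, and 1 without control replicate 1. Fitting only the groups compared called 33, and the shared fit without iron-free spl7 replicate 3 called 8. In doubly deficient against iron-free Col-0 roots, PSAN rose by 0.95 (edgeR adjusted p = 0.0433) and LHCA4 by 0.75 (edgeR adjusted p = 0.0378), when 8.72% of all genes were called and 3.66% were called higher. Fitting only the groups compared called 32 genes higher, and the shared fit without iron-free spl7 replicate 3 called 6. PSAN measured 9.47, 11.7 and 10.4 CPM, but neither call held with any 1 of the 6 libraries left out.

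In iron-free spl7 roots PSAN was again lower, with 3.82, 2.17 and 7.26 CPM against 7.41, 7.78 and 9.52 CPM in controls (-0.93 ± 0.31, edgeR adjusted p = 0.0471). PSBO1 was higher, with 22.7, 20.4 and 18.7 CPM against 8.63, 6.69 and 14.1 CPM (1.07 ± 0.35, edgeR adjusted p = 0.0431). Neither pair of groups overlapped, and 13.1% of all genes were called, 8.33% higher and 4.78% lower. Replicate 3, the library that stood apart, had the highest PSAN level of the 3. Without it both calls held, with PSAN at -1.46 and PSBO1 at 1.12. Fitting only the groups compared called 0 genes. The median over the 43 genes was 0.75 and that of the markers 0.81, of which 0 were called, so PSAN ran against both. The count was 0 without control replicate 1 or 2 or iron-free replicate 1 or 2, 7 without control replicate 3 and 5 without iron-free replicate 3.

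The spl7 change minus the Col-0 change under iron removal was called for 6 genes in roots, all above 0, when 7.02% of all genes were called and 4.05% were called above 0. They were LHCB1.3 (2.72), LHCB3 (2.43), PSBQ1 (2.39), LHCB1.5 (2.27), PSBP1 (2.19) and PSBO1 (1.88). The median of the 43 was 1.75 and that of the markers, of which 0 were called, 2.11. The count was 0 without Col-0 control replicate 1, Col-0 iron-free replicate 2, spl7 control replicate 1 or 2 or spl7 iron-free replicate 1, and 2 without Col-0 control replicate 2 or Col-0 iron-free replicate 3. It was 16 without spl7 control replicate 3 and 8 without iron-free spl7 replicate 3. With copies summed, LHCB1 was at 2.36 (edgeR adjusted p = 0.0418). The departure from additivity in Col-0 roots was called for LHCA4 alone (1.19 ± 0.32, edgeR adjusted p = 0.0425), when 2.89% of all genes were called and 1.44% were called above 0. It was called for 0 genes when any 1 of 9 of the 12 libraries was left out and for 5 without copper-free replicate 1. Fitting only the groups compared called 27 genes above 0, and the shared fit without iron-free spl7 replicate 3 called 5.

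The other 8 root comparisons called 0 of the 43 genes by edgeR. Copper removal called 0.0733% of all genes in Col-0 and 0.21% in spl7, with 1 and 0 of the 43 genes at an unadjusted p below 0.05, against 15.9% and 8.5% of all genes at that level. Removing both metals called 4.69% in Col-0 and 0.855% in spl7, with 0 of the 43 at that level in either, against 21.9% and 8.97%. The difference between the genotypes called 0.044% for copper removal and 1.47% for the removal of both, with 1 and 0 of the 43 at that level, against 13.3% and 15.9%. Doubly deficient against iron-free spl7 called 13.9% of all genes, and 5 of the 43 were at that level, against 32.5% of all genes. Low-copper spl7 against Col-0 controls called 13.3%, and 9 of the 43 were at that level, against 29.6%. Single libraries moved the count to 8 without doubly deficient spl7 replicate 1 and to 4 without iron-free spl7 replicate 3 in doubly deficient against iron-free spl7. In low-copper spl7 against Col-0 it was 6 without low-copper spl7 replicate 3, 1 without Col-0 control replicate 1, and 2 in the shared fit without iron-free spl7 replicate 3. The DESeq2 Wald test called 0 genes in all 8.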

How the data were processed

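RNA-seq libraries of roots and rosettes were deposited by the authors as raw read counts per gene, 1 table per library; Bowtie, HTSeq and the TAIR10 build are named in the submitters' processing notes, without versions, and strandedness and harvest time are not given in the sources used here. From the deposited counts, CPM (counts scaled to the TMM effective library total of each organ, except for SPL7 and shares of counts, which use the plain total) and RPKM (CPM per kilobase of TAIR10.1 exon length) were computed here. Each organ's 27 libraries, 9 groups of 3, were fitted together in R 4.3.3 with edgeR 4.0.16 (limma 3.58.1): genes passing filterByExpr (minimum count 10, minimum total 15), TMM scaling, the quasi-likelihood test, and Benjamini-Hochberg adjustment over all 20015 rosette or 20462 root genes, called at 0.05. Log2 changes are given ± SE. TMM factors were 0.865 to 1.16 in rosettes and 0.969 to 1.035 in roots, and plain CPM would differ from the printed values by these factors. The alternatives were DESeq2 1.42.0 size factors and Wald test, scaling without the 44 genes and organelle genes, no filter, the replicate number as a block, summed LHCB1 and LHCB2 copies, only the groups compared, and each library left out, plus, chosen after seeing the data, the shared root fit without the library that stood apart. The ratio of photosystem I to photosystem II sums was compared by exact permutation. Python 3.11.15, numpy 2.4.6, pandas 2.3.3 and matplotlib 3.10.9 were used.

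The 44 genes and the lists beside them were chosen with earlier results of these data known. All 44 are accounted for; library values are given for up to 4 called genes with the largest change per class and direction, and up to 4 called genes of each other list may be named. The labels call the libraries biological replicates without saying whether containers or harvests were separate. The edgeR p-values set a group difference against a scatter estimated from all libraries of the organ. Part of that scatter may be technical. Counts were simulated at each gene's mean over all libraries of an organ, with 200 genes changed. For iron-free against control spl7 rosettes (19834 genes), 81 of 100 2-fold and 64 of 100 1.5-fold changes were found, with 1 false call. For doubly deficient against iron-free spl7 rosettes these values were 76, 53 and 5. In spl7 roots they were 76, 53 and 7 for iron removal, and 75, 43 and 4 for doubly deficient against iron-free plants. In the real iron-free spl7 rosettes 27.4% of all genes were called, so the simulated setting was milder.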

Additional observations from a re-analysis of the deposited data

Results flagged for a closer look

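In rosettes, a direct test called a difference between spl7 and Col-0 in the response to iron removal for 5 of 44 genes. That share was near the 8.46% of all genes. The values (log2, spl7 minus Col-0) were PSAN -1.55, PSAF -1.34, LHCB2.3 -1.05, PSAD2 -0.84 and LHCA6 -0.77. The response to the removal of both metals differed for 5 of 44 genes, a share near the 8.29% of all genes: LHCB2.3 -0.90, LHCB4.3 -0.79, LHCA6 -0.64, PSBS -0.51 and LHCB2.1 -0.49. Genotype and copper pretreatment cannot be told apart in either.

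The effect of iron removal in Col-0 rosettes differed with copper supply, tested as an interaction, for 31 of 44 genes, against 4.52% of all genes. The largest values among photosystem I genes were PSAN 1.18, PSAD2 0.86, PSAP 0.77 and PSAD1 0.75. Among LHCA genes they were LHCA1 0.84, LHCA3 0.81, LHCA4 0.74 and LHCA5 0.54. Among LHCB genes they were LHCB2.3 1.88, LHCB1.4 1.18, LHCB2.1 1.02 and LHCB2.2 1.02, and among photosystem II genes PSBW 0.82, PSBY 0.77, PSBX 0.70 and PSBQ2 0.66.

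In roots, the response to iron removal differed between the genotypes for 6 of 43 genes, against 7.02% of all genes: LHCB1.3 2.72, LHCB3 2.43, PSBQ1 2.39, LHCB1.5 2.27, PSBP1 2.19 and PSBO1 1.88. The interaction of iron and copper in Col-0 roots was called for 1 of 43 genes, LHCA4, at 1.19, against 2.89% of all genes.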

How the results depend on the processing

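Of 239 called changes of single genes, the alternatives other than leaving out a library gave 1665 values, of which 1632 kept direction and call, 33 lost the call and 0 reversed. Leaving out libraries gave 1722 values, of which 431 lost the call and 0 reversed. Counts of called genes moved by over 1.5 times as follows; the cause was not tested. With the DESeq2 Wald test, iron removal in Col-0 called 20 in rosettes and 7 in roots, copper removal and removal of both in spl7 rosettes 1 each, the genotype difference under iron removal in rosettes 12, doubly deficient against iron-free Col-0 roots 4, and the root interaction 3. With only the groups compared, iron removal in Col-0 called 0 in rosettes and 33 in roots, removal of both in spl7 rosettes 2, the genotype difference for both metals in rosettes 10, doubly deficient against iron-free Col-0 roots 32, iron removal in spl7 roots 0, and the root interaction 27. With iron-free spl7 root replicate 3 removed from the shared root fit, an alternative chosen after seeing the data, iron removal in Col-0 roots called 8, doubly deficient against iron-free Col-0 roots 6, low-copper spl7 against Col-0 roots 2 and the root interaction 5.

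With the replicate number as a block, removal of both metals in spl7 rosettes called 1, the genotype difference under iron removal in rosettes 8, iron removal in roots 6 in Col-0 and 1 in spl7, and doubly deficient against iron-free spl7 roots and low-copper spl7 against Col-0 roots 1 each. The labels do not say that a number marks a batch, and same-numbered libraries deviated together in all 3 pairs in 1 of 20 comparisons of 2 groups, so the numbers were not taken as pairs.

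With 1 library left out, rosette counts ranged from 0 to 9 for iron removal, 2 to 8 for removal of both and 30 to 42 for doubly deficient against iron-free plants in Col-0. In spl7 they ranged from 0 to 2 for copper removal, 40 to 41 for iron removal and 40 to 43 for doubly deficient against iron-free plants. They ranged from 6 to 10 for low-copper spl7 against Col-0, 0 to 4 for the pretreatments, 4 to 10 and 2 to 6 for the genotype differences under iron removal and removal of both, and 13 to 38 for the interaction. In roots they ranged from 0 to 4 and 0 to 7 for iron removal in Col-0 and spl7, 0 to 0 and 0 to 8 for doubly deficient against iron-free plants, 0 to 6 for low-copper spl7 against Col-0, 0 to 37 for the pretreatments, 0 to 16 for the genotype difference under iron removal and 0 to 5 for the interaction. Root values rest on few counts, and 3 libraries a group limit what small changes can be called.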

Other observations

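In low-copper spl7 against Col-0 control rosettes, 10 of 17 plastid-encoded photosystem genes were higher and 0 lower, with a median log2 difference of 0.99. Over all genes, 20.6% were higher and 21.6% lower. Of the 44 nuclear genes 2 were higher and 7 lower, a smaller share than over all genes. Of 16 regulators of photosynthesis genes, 9 were higher and 1 lower, with the sigma factor SIG5 at 2.05 and GNL at 1.28. ELIP1, an early light-induced relative of the antenna proteins, was higher by 3.17. Within spl7, low against high copper pretreatment called 9 of the 17 plastid genes higher and 0 lower, with a median of 0.97, when 23.9% of all genes were called. These comparisons share the low-copper spl7 libraries. All organelle genes together took 0.0686%, 0.0545% and 0.0719% of counts in those libraries. The share was 0.0325%, 0.0324% and 0.0378% in Col-0 controls and 0.0434%, 0.0259% and 0.0315% in high-copper spl7 controls. Whether the rise was particular to photosystem genes was not tested. Some plastid genes had low levels in Col-0 controls, such as psaC at 0.956 CPM and psbE at 1.16 CPM. Whether these few reads follow the plastid RNA levels was not tested.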
